A study of Arabidopsis thaliana with 12 samples.

Results

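The chloroplast genome of Arabidopsis thaliana encodes a small set of proteins that run photosynthesis and make the chloroplast's own ribosomes and RNA polymerase. Members were taken as the probe sets of the ATH1 array whose single annotated gene lies on that genome, with the brightest probe set kept where a gene had several. The rule found 69 genes, each with 1 probe set, among 22746 probe sets. Of these, 15 encode photosystem II proteins, 5 photosystem I, 6 the cytochrome b6f complex, 6 the ATP synthase and 1 (rbcL) the large subunit of Rubisco. A further 10 encode subunits of the NAD(P)H dehydrogenase-like complex (NDH), 15 ribosomal proteins, 4 the RNA polymerase and 7 other proteins. All 69 passed the filter that left out the dimmest 30% of probe sets, so no member is missing from the counts. The array also holds 8 chloroplast probe sets that list several gene copies, and these lie outside the rule.

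Total RNA was taken from the aerial parts of plants 2 weeks old and biotin-labelled for 12 arrays. The plants were grown at 23 C and 70% humidity with a 16 h photoperiod. The arrays form 6 genotypes of 2 arrays each: cpr5, the double mutant cpr5npr1, the double mutant cpr5scv1, the triple mutant cpr5npr1svi1, npr1, and the wild type Col-0 (WT). Each genotype with cpr5 in its name carries that mutation, and the labels give neither the alleles nor the genetic background of the mutants beyond these names. They describe cpr5npr1 as fully resistant to the downy mildew P. parasitica. They describe cpr5scv1, whose added mutation suppresses the cpr5 phenotype, as susceptible to that pathogen like the wild type, somewhat more susceptible to P. syringae, and resistant to B. cinerea. As background, cpr5 plants form spontaneous lesions and express defence genes without infection. NPR1 acts as a transcriptional co-activator downstream of salicylic acid. The labels do not state if both arrays of a genotype stem from different plants. The p-values therefore reflect array-to-array spread alone, which could be technical.

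Transcription in the chloroplast is shared by a plastid-encoded polymerase (PEP) and nuclear-encoded phage-type polymerases (NEP). The core of PEP is made from the chloroplast genes rpoA, rpoB, rpoC1 and rpoC2, and PEP reads most photosynthesis genes, whereas NEP reads the rpoB operon and accD. Most chloroplast genes lie in operons whose long transcripts are cut, edited and stabilised by proteins imported from the cytosol, so neighbouring genes can still differ in the level of their mature RNA. In a leaf extract the signal of these genes also depends on how many chloroplasts and genome copies the sampled cells contain. Fewer green cells, fewer chloroplasts per cell and less RNA per chloroplast cannot be told apart in these bulk samples.

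The 2 green-tissue markers with a named probe set were bright on every array: RCA, the Rubisco activase, ranged from 3779 to 7166 and PRK, a Calvin cycle kinase, from 1918 to 3627 signal units. The root markers PYK10 (164.8 to 835.7) and EXPA7 (1.998 to 18.33) were also measured, and none of the 5 flower and 3 seed markers listed had a named probe set. MAS5 signal, a linear intensity summary per probe set, had been scaled to the same trimmed mean on every array, and the median over all probe sets ran from 36.75 to 43.49. The 99th percentile of the probe sets outside the chloroplast genes was 1498 and 1669 in cpr5, 1474 and 1791 in cpr5npr1, 1517 and 1624 in cpr5scv1, 1653 and 1835 in cpr5npr1svi1, and 1868 and 1763 in npr1, against 1795 and 1958 in WT. This percentile was below the WT array of the same number on all mutant arrays but the first of npr1, and its part in the results was not tested. The second npr1 array stood apart, with several photosystem II genes and rbcL far below the first, and the npr1 median over all members is given with and without it. Class medians of npr1 rest on both arrays.

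In the deposited signal chloroplast transcripts were lower in cpr5 and cpr5scv1 than in WT, by about the same amount, across nearly the whole genome. After quantile normalization the median log2 changes were smaller, at -0.18 and -0.22, where all probe sets stood at -0.067 and -0.11. Members are bright, with 26 of 69 in the top 1% of probe sets and 68 above the median. The high percentile given above for other probe sets was also lower in both mutants than in WT. How much of the fall is shared with other bright probe sets was not tested. The median signal of the 69 genes was 1195 and 1018 on the cpr5 arrays and 1245 and 944.3 on the cpr5scv1 arrays, against 1686 and 1403 on the WT arrays. It was 1323 and 1175 in cpr5npr1, 1520 and 1234 in cpr5npr1svi1, and 1566 and 1103 in npr1. The arrays numbered 2 had the lower median in every genotype, and within each number the median of all 5 mutants lay below that of WT. The comparisons with WT share the same WT arrays, so they are not independent of each other.

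In cpr5, 68 of 69 genes had a log2 change from WT below 0, with a median of -0.40, a typical level of 0.756 times WT, and a range of -0.90 to 0.031. The median was -0.40 in the first pair of arrays and -0.39 in the second, while the median over all 15923 probe sets tested was 0.024. Both cpr5 arrays lay below both WT arrays for 34 of the 69 genes, and over all probe sets this held for 22.0%. A fall in both pairs was seen for 65 genes, against 33.0% of all probe sets. The limma test, with 2 arrays a group, called 2 genes lower (ndhJ and atpH) at an adjusted p below 0.05, where 2.15% of all probe sets were called lower. At an unadjusted p below 0.05, 12 members were lower, against 8.55% of all probe sets. With the replicate number as a block, 17 genes were called lower and 6.92% of all probe sets.

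In cpr5scv1, all 69 genes were below 0, with a median log2 change of -0.43 (-0.40 and -0.40 in the separate pairs) and a range of -1.15 to -0.10. The median over all probe sets was -0.012. Both arrays lay below both WT arrays for 40 genes, against 29.6% of all probe sets, and 65 were lower in both pairs, against 37.9%. The test called 6 genes lower, and 9.55% of all probe sets, so the share of members called was close to the background. With the block it called 33, against 16.4% of all probe sets.

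In cpr5npr1 the median lay nearer to 0. There 68 genes were below 0, with a median log2 change of -0.27 (-0.28 and -0.25 in the separate pairs), 27 did not overlap with WT, against 20.2% of all probe sets, and 61 were lower in both pairs, against 31.0%. No gene was called by limma, where 2.05% of probe sets were called lower, and 4 members were lower at an unadjusted p below 0.05, against 8.13% of all probe sets. With the block, 5 were called lower (rps2, rpoC1, rpoC2, psbH and rpl14), against 6.2% of all probe sets, a share close to the background. In cpr5npr1svi1 the genes lay near WT, with 46 below and 23 above 0 and a median log2 change of -0.061 (-0.13 and -0.0050 in the separate pairs), which was 0.030 after quantile normalization. No gene was called there with or without the block, while 4.08% of all probe sets were called lower (9.19% with the block). None had an unadjusted p below 0.05, where 10.3% of all probe sets were lower and 15.5% higher. Both arrays lay below WT for 6 genes and above it for 2, where 21.2% and 28.5% of all probe sets did so. In both pairs 26 were lower and 4 higher, against 31.3% and 37.8%. The median of the cpr5npr1svi1 genes passed 0 (0.036) when its first array was left out.

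**Figure D1:**
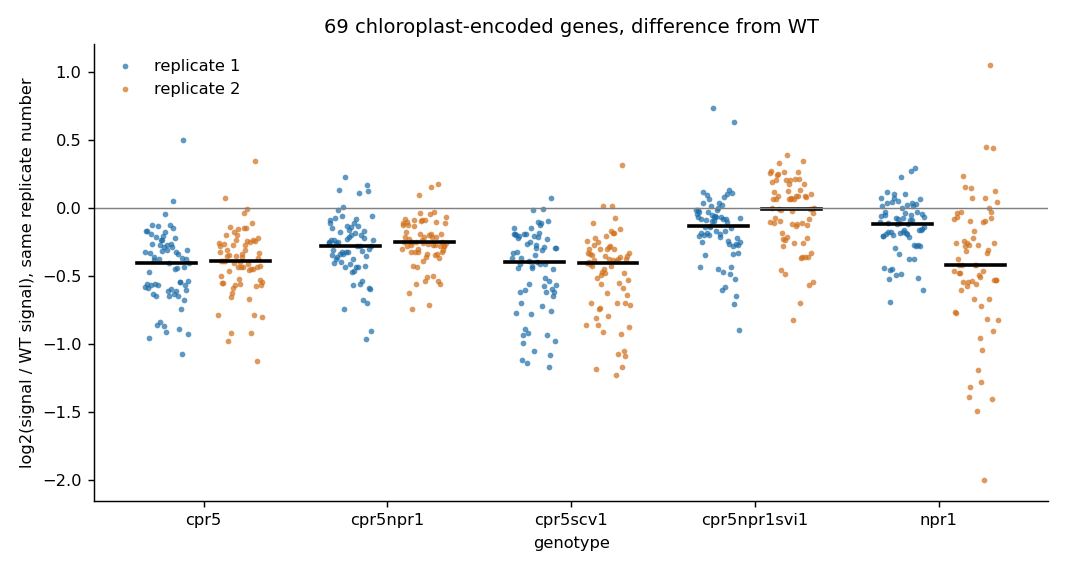
Log2 ratio of each of the 69 chloroplast genes to WT (y axis) in the 5 mutant genotypes (x axis), with the arrays numbered 1 in blue and those numbered 2 in orange. Each point is a gene and each bar the median. The cpr5 and cpr5scv1 medians lie between -0.39 and -0.40 in both arrays, cpr5npr1 at -0.28 and -0.25, and in npr1 the second array lies lower than the first.

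The photosynthesis genes as a whole (psa, psb, pet, atp and rbcL, 33 genes) had a median log2 change of -0.32 in cpr5, -0.22 in cpr5npr1, -0.32 in cpr5scv1, 0.0037 in cpr5npr1svi1 and -0.26 in npr1, each against WT. The test called 1 of the 33 in cpr5 and none in cpr5scv1, where 2.15% and 9.55% of all probe sets were called lower. At an unadjusted p below 0.05, 5 and 7 were lower, against 8.55% and 16.5% of all probe sets. With the block it called 6 in cpr5 and 11 in cpr5scv1, against 6.92% and 16.4%. In npr1 the median was -0.11 in the first pair of arrays and -0.51 in the second.

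Among the 15 photosystem II genes, which encode the complex that splits water, all 15 were below 0 in cpr5 and in cpr5scv1, with medians of -0.32 in both. The largest fall was that of psbB, the CP47 inner antenna protein. Its signal was 1879 and 2676 in cpr5 and 1703 and 2853 in cpr5scv1, against 3538 and 3521 in WT. Both mutants lay below WT on each array, with log2 changes of -0.65 (SE 0.258, adjusted p = 0.158, with the block 0.0387) and -0.68 (SE 0.258, adjusted p = 0.0854, with the block 0.0189). Further along the same operon, psbH encodes a small phosphoprotein. It had 1600 and 1992 in cpr5, 1689 and 2134 in cpr5npr1 and 1904 and 1998 in cpr5scv1, against 2506 and 2693 in WT. None of these arrays reached WT. The npr1 arrays (2439 and 2226) also lay below both WT arrays, by less on the first, while those of cpr5npr1svi1 (2398 and 2816) overlapped with WT. The log2 change of psbH was -0.54 in cpr5 (SE 0.173, adjusted p = 0.0843, with the block 0.0208) and -0.45 in cpr5npr1 (adjusted p = 0.151, with the block 0.0455). Averaged over both NPR1 backgrounds, as the mean of cpr5 and cpr5npr1 minus the mean of WT and npr1, psbH fell by 0.42 (SE 0.122, adjusted p = 0.0420).

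At the other end of the class, psbI, a small subunit of the reaction centre, had 1666 and 1559 in cpr5, against 1815 and 1724 in WT, a log2 change of -0.13 (SE 0.223, adjusted p = 0.788). In cpr5npr1svi1 it had 1844 and 2003, and with psbM it was among the 2 genes whose arrays both lay above both WT arrays there. The smallest log2 change of a photosystem II gene in cpr5 was that of psbN (-0.096), which is needed to assemble the complex and is read from the strand opposite to its neighbours. Its arrays gave 110.6 and 89.84 in cpr5, against 106.5 and 106.5 in WT, so the groups overlapped. In cpr5scv1 the smallest was psbJ, at 1204 and 975.2, against 1398 and 965.7 in WT, a log2 change of -0.10 (adjusted p = 0.875).

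All 5 photosystem I genes were below 0 in cpr5, in cpr5npr1 and in cpr5scv1, and none was called. The reaction centre subunit psaA had 3069 and 2277 in cpr5 and 3217 and 2697 in cpr5scv1, against 3823 and 2677 in WT. Its partner psaB had 4490 and 4449 in cpr5 and 4684 and 4165 in cpr5scv1, against 5178 and 5688 in WT. The arrays of psaB did not overlap with WT while those of psaA did, and their log2 changes in cpr5 were nearly the same at -0.28 (SE 0.184) and -0.28 (SE 0.216). The small subunit psaI had 1646 and 1532 in cpr5 and 1483 and 1485 in cpr5scv1, against 2011 and 2068 in WT. This gave a log2 change of -0.46 in cpr5scv1 (SE 0.157, adjusted p = 0.0587, with the block 0.0238). For psaJ, another small subunit, the change in cpr5scv1 was -0.32 (SE 0.191, adjusted p = 0.269). The iron-sulphur subunit psaC differed far more between array numbers than between genotypes. It had 253.6 and 1238 in cpr5 and 269.3 and 1110 in cpr5scv1, against 462.8 and 1419 in WT. Each mutant array was below the WT array of the same number, and psaC was called lower with the block in cpr5 (log2 change -0.53, adjusted p = 0.0424) and cpr5scv1 (-0.57, adjusted p = 0.0185), but not without it (0.823 and 0.747).

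The cytochrome b6f genes, whose complex carries electrons between the photosystems, had medians of -0.39 in cpr5 and -0.60 in cpr5scv1. Their clearest member was petG, a small subunit, with 282.3 and 410.3 in cpr5, 302.6 and 433.7 in cpr5npr1 and 267.6 and 367.9 in cpr5scv1, against 506.6 and 543.7 in WT. Each of these 6 arrays was below both WT arrays. The log2 changes were -0.62, -0.53 and -0.74 (SE 0.251 for each), and the last had an adjusted p of 0.0569 (with the block 0.0140). Subunit IV, petD, had 43.81 and 118.1 in cpr5scv1, against 96.85 and 165.9 in WT, and its log2 change of -0.82 (SE 0.423, adjusted p = 0.195) lay within the spread of the arrays. With the block, 4 of the 6 genes were called lower in cpr5scv1 and none in cpr5, against 16.4% and 6.92% of all probe sets.

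Of the 6 ATP synthase genes, atpH was called lower in cpr5. It encodes the c subunit, which forms the rotating ring in the membrane. Its signal was 2302 and 2292 in cpr5, 3118 and 3061 in cpr5npr1, 3009 and 2625 in cpr5scv1, 3005 and 3393 in cpr5npr1svi1 and 3003 and 3159 in npr1, against 3460 and 3242 in WT. The cpr5 arrays were the lowest of all 12, and every other mutant was nearer to WT. The log2 change in cpr5 was -0.54 (SE 0.142, adjusted p = 0.0394, with the block 0.0136). This call was lost without any single array of cpr5, cpr5scv1, npr1 or WT. It was also lost with quantile normalization, no filter, no intensity trend or a fit of only the groups compared.

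Its neighbour in the same operon, atpI, encodes the a subunit. It had 230.1 and 167.7 in cpr5 and 262.5 and 194.7 in cpr5scv1, against 448 and 245.7 in WT. Both cpr5 arrays were below both WT arrays, although the WT arrays lay far apart. The log2 change in cpr5 was -0.76 (SE 0.344, adjusted p = 0.224), and it was called with the block (adjusted p = 0.00407). The catalytic beta subunit atpB and the epsilon subunit atpE, whose genes overlap on the genome, differed least, with log2 changes in cpr5 of -0.22 (SE 0.241, adjusted p = 0.652) and -0.25 (SE 0.214, adjusted p = 0.562). For atpE the values were 4108 and 4306 in cpr5, against 4610 and 5389 in WT.

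The gene for the large subunit of Rubisco, rbcL, varied too much between arrays for any comparison to be called. It had 263.7 and 461.6 in cpr5, 389.4 and 609.3 in cpr5npr1, 358.9 and 314.1 in cpr5scv1, 386.8 and 454.2 in cpr5npr1svi1 and 435.2 and 183.6 in npr1, against 360 and 736.1 in WT. The WT arrays lay far apart, and the lowest value was that of the second npr1 array. Its log2 change was -0.56 in cpr5 (SE 0.440, adjusted p = 0.507) and -0.62 in cpr5scv1 (SE 0.440, adjusted p = 0.356).

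**Figure D2:**
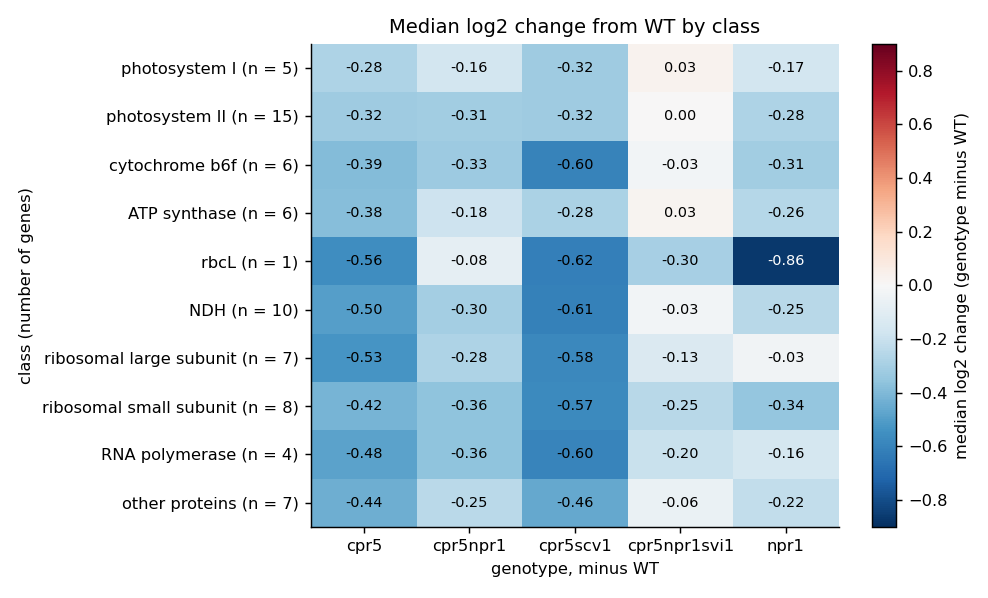
Median log2 change from WT (colour and printed value) of each functional class of chloroplast genes (y axis, with the number of genes) in each mutant (x axis). Every class is below 0 in cpr5 and cpr5scv1, NDH stands at -0.50 and -0.61, photosystem II at -0.32 in both, and in cpr5npr1svi1 photosystem I and II lie at 0.032 and 0.0003.

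The genes of the NDH complex, which returns electrons to the photosystem I chain around the usual route, included the member with the smallest adjusted p in both cpr5 and cpr5scv1. All 10 were below 0 in both cpr5 and cpr5scv1, with medians of -0.50 and -0.61, against -0.30 in cpr5npr1, -0.025 in cpr5npr1svi1 and -0.25 in npr1. The test called 1 of 10 lower in cpr5 (3 with the block) and 3 of 10 in cpr5scv1 (6 with the block). Among all probe sets, 2.15% and 9.55% were called lower in these comparisons, or 6.92% and 16.4% with the block.

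The gene that fell in both was ndhJ, a subunit of the arm that lies outside the membrane. Its signal was 833.1 and 739.9 in cpr5, 1151 and 1282 in cpr5npr1, 818.7 and 773.7 in cpr5scv1, 1319 and 1234 in cpr5npr1svi1 and 1113 and 1127 in npr1, against 1517 and 1403 in WT. The arrays fell into 3 levels that did not overlap, with cpr5 and cpr5scv1 lowest, the other 3 mutants between, and WT highest. Mean signals were 786.5 ± 65.9 in cpr5 and 796.2 ± 31.9 in cpr5scv1, against 1460 ± 80.2 in WT (SD, n = 2 each). On the log2 scale ndhJ fell by 0.89 in cpr5 (SE 0.139, adjusted p = 0.00293), to 0.538 times WT. In cpr5scv1 it fell by 0.87 (SE 0.139, adjusted p = 0.00149), to 0.546 times WT.

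The call of ndhJ in cpr5 held with each of the 12 arrays left out in turn (adjusted p of 0.00382 to 0.0383), and so did that in cpr5scv1 (0.00203 to 0.0167). With a fit of only the groups compared, the cpr5 call was lost (adjusted p = 0.0523). The difference of ndhJ from WT was -0.26 in cpr5npr1 (SE 0.139, adjusted p = 0.308), -0.19 in cpr5npr1svi1 (adjusted p = 0.435) and -0.38 in npr1 (adjusted p = 0.824).

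The 2 other genes of the ndhC-ndhK-ndhJ operon had less clear differences. For ndhK, also a subunit of that arm, the signal was 989.9 and 594 in cpr5, 1412 and 747.6 in cpr5npr1, 964.8 and 557.9 in cpr5scv1, 1534 and 799.4 in cpr5npr1svi1 and 1276 and 783 in npr1, against 1468 and 934.8 in WT. The arrays numbered 2 were lower in each genotype, so the groups overlapped, but within each number cpr5 and cpr5scv1 were the lowest. The log2 changes were -0.61 in cpr5 (SE 0.441, adjusted p = 0.466) and -0.68 in cpr5scv1 (SE 0.441, adjusted p = 0.310), and both were called with the block (0.00546 and 0.00134). The first gene, ndhC, which encodes a membrane subunit, had 1624 and 1403 in cpr5 and 1470 and 1330 in cpr5scv1, against 1954 and 1608 in WT. Its log2 changes of -0.23 (adjusted p = 0.600) and -0.34 (adjusted p = 0.301) were not called with or without the block.

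A pair of genes for membrane subunits, ndhG and ndhF, were also called in cpr5scv1. The signal of ndhG was 353.9 and 304.3 in cpr5 and 262.4 and 239.7 in cpr5scv1, against 522.3 and 420 in WT. It fell by 0.90 in cpr5scv1 (SE 0.243, adjusted p = 0.0229), and in cpr5 its log2 change was -0.51 (SE 0.243, adjusted p = 0.243, with the block 0.0437). The call in cpr5scv1 was lost without the first WT array or either cpr5scv1 array. The signal of ndhF was 47.19 and 47.73 in cpr5 and 28.01 and 41.17 in cpr5scv1, against 60.73 and 93.91 in WT. All 4 of these mutant arrays were below both WT arrays. In cpr5scv1 ndhF fell by 1.15 (SE 0.336, adjusted p = 0.0318), the largest fall of any member there. It is a dim member, and its cpr5scv1 values lay below the medians over all probe sets on those arrays (42.59 and 42.06). The ndhF call was lost without the second WT array or the first cpr5scv1 array, and with only the groups compared.

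**Figure D3:**
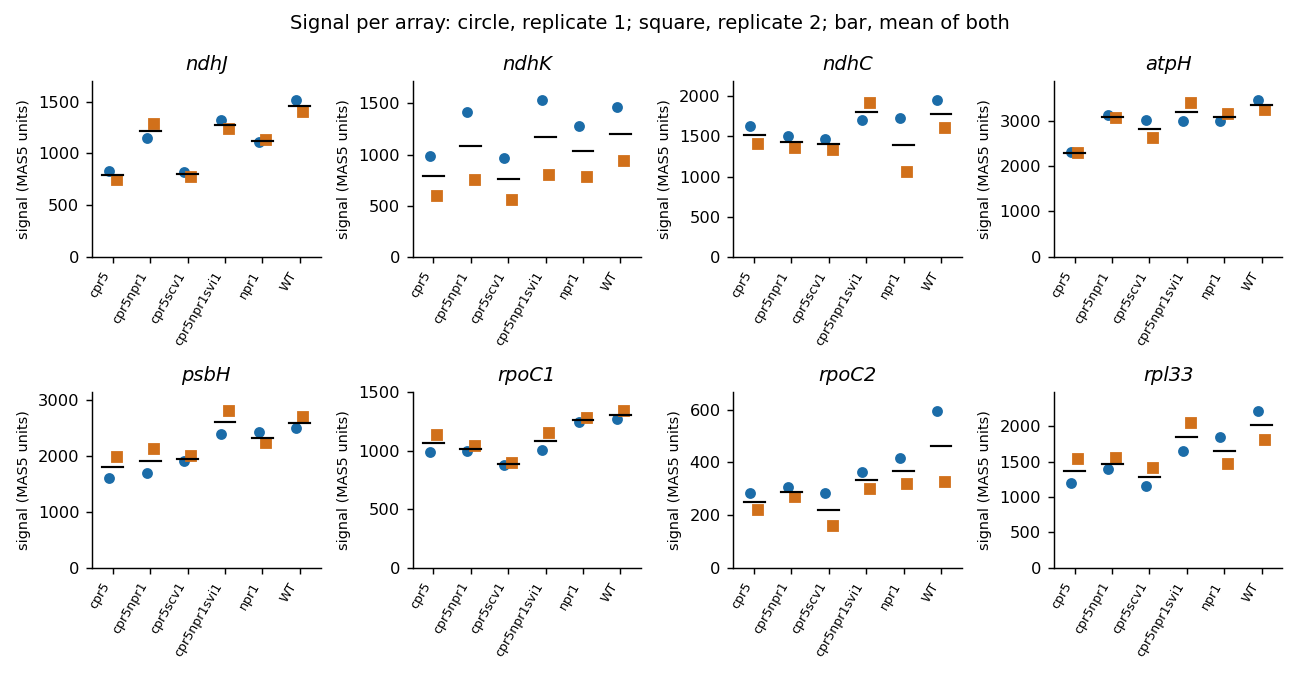
Signal (y axis, linear from 0) of 8 chloroplast genes in each genotype (x axis), with circles for the arrays numbered 1, squares for those numbered 2 and bars for their mean. The cpr5 and cpr5scv1 arrays of ndhJ lie between 739.9 and 833.1, below all others (1113 to 1517), while for ndhK cpr5 and cpr5scv1 are the lowest within each array number and the arrays numbered 2 lie below those numbered 1.

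Ribosomal protein genes, which supply the chloroplast's own translation machinery, had a median log2 change of -0.50 in cpr5, -0.31 in cpr5npr1, -0.58 in cpr5scv1, -0.17 in cpr5npr1svi1 and -0.21 in npr1. Of the 15 genes, 14 were below 0 in cpr5 and 15 in cpr5scv1. None was called in cpr5 (2 had an unadjusted p below 0.05, and 5 were called with the block), and 1 was called in cpr5scv1 (10 with the block). Of all probe sets, 2.15% were called lower in cpr5 (8.55% at an unadjusted p below 0.05, 6.92% with the block). In cpr5scv1 9.55% were called lower (16.4% with the block). The gene called in cpr5scv1 was rpl33, a large-subunit protein, with 1195 and 1531 in cpr5 and 1159 and 1403 in cpr5scv1, against 2223 and 1806 in WT. It fell by 0.65 in cpr5scv1 (SE 0.201, adjusted p = 0.0403), and the call was lost without the first WT array or either cpr5scv1 array. In cpr5 its log2 change was -0.57 (SE 0.201, adjusted p = 0.117, with the block 0.0598).

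Among the small-subunit genes, rps4, whose protein starts assembly of that subunit in bacteria, had 1852 and 2666 in cpr5 and 1785 and 3126 in cpr5scv1, against 3520 and 3940 in WT. These arrays did not overlap with WT, and the log2 changes were -0.75 (SE 0.395, adjusted p = 0.30, with the block 0.0343) and -0.66 (SE 0.395, adjusted p = 0.268, with the block 0.0338). The values of rps19 lay close together, at 1104 and 1103 in cpr5, 1161 and 1117 in cpr5npr1 and 1046 and 1087 in cpr5scv1, against 1432 and 1387 in WT. Its log2 changes were modest, -0.35 in cpr5 (SE 0.143, adjusted p = 0.171) and -0.40 in cpr5scv1 (SE 0.143, adjusted p = 0.0688, with the block 0.0280). The large-subunit gene rpl32 had 633.4 and 1027 in cpr5, against 801.8 and 1109 in WT, and the groups overlapped (log2 change -0.23, SE 0.437, adjusted p = 0.824).

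The 4 genes of the plastid-encoded RNA polymerase were below 0 in cpr5, cpr5npr1, cpr5scv1 and cpr5npr1svi1, with medians of -0.48, -0.36, -0.60 and -0.20. In npr1 the median was -0.16 and 3 of 4 were below 0. The test called 2 of the 4 lower in cpr5scv1 and none in cpr5, against 9.55% and 2.15% of all probe sets. At an unadjusted p below 0.05, 2 were lower in cpr5, against 8.55% of all probe sets. With the block the test called 3 in cpr5scv1, 2 in cpr5npr1 and 1 in cpr5, against 16.4%, 6.2% and 6.92%.

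The beta' subunit gene rpoC1 had 988.1 and 1136 in cpr5, 996.1 and 1038 in cpr5npr1, 878 and 893.7 in cpr5scv1, 1007 and 1152 in cpr5npr1svi1 and 1245 and 1279 in npr1, against 1273 and 1344 in WT. Its replicates lay close together, each of the 4 genotypes with the cpr5 mutation lay below WT on both arrays, and npr1 overlapped with WT. It fell by 0.56 in cpr5scv1 (SE 0.140, adjusted p = 0.0158). The log2 change was -0.30 in cpr5 (SE 0.140, adjusted p = 0.230, with the block 0.0761), -0.36 in cpr5npr1 (adjusted p = 0.155, with the block 0.0420) and -0.28 in cpr5npr1svi1 (adjusted p = 0.241). The cpr5scv1 call was lost without the second WT array or either cpr5scv1 array, and with quantile normalization or only the groups compared.

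The gene rpoC2, for the beta'' subunit, had 282.9 and 217.8 in cpr5, 306.1 and 268.1 in cpr5npr1, 281.6 and 157 in cpr5scv1, 364.5 and 297.3 in cpr5npr1svi1 and 416.9 and 319.3 in npr1, against 596.7 and 325.2 in WT. The first WT array was the highest of all 12. In cpr5scv1 rpoC2 fell by 1.07 (SE 0.324, adjusted p = 0.0379). That call was lost without the first WT array or the second array of cpr5npr1, cpr5scv1 or cpr5npr1svi1. Without the intensity trend, or with only the groups compared, rpoC2 was not called either. In cpr5 its log2 change was -0.83 (SE 0.324, adjusted p = 0.156, with the block 0.0103). For rpoA, the alpha subunit, the signal was 915.3 and 907.4 in cpr5 and 1245 and 697.2 in cpr5scv1, against 1332 and 1567 in WT. Its log2 changes were -0.67 (SE 0.254, adjusted p = 0.146, with the block 0.0524) and -0.63 (SE 0.254, adjusted p = 0.101, with the block 0.0387). The fourth gene, rpoB, had 72.67 and 146 in cpr5 and 53.99 and 143.1 in cpr5scv1, against 121.7 and 115 in WT, and its pairs of arrays moved in opposite directions.

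Grouped by the polymerase that mainly reads them, the 4 NEP genes rpoB, rpoC1, rpoC2 and accD had a median log2 change of -0.49 in cpr5 and -0.59 in cpr5scv1. The 26 photosynthesis genes read mainly by PEP had medians of -0.34 and -0.38. None of the 4 was called in cpr5 and 2 in cpr5scv1 (2 and 3 with the block), and of the 26 none was called in either (3 and 10 with the block). The shares of all probe sets called lower were 2.15% and 9.55% (6.92% and 16.4% with the block). The difference between the 2 sets was not tested. The NEP-read gene accD encodes a subunit of acetyl-CoA carboxylase, which starts fatty acid synthesis. It had 764 and 865 in cpr5, 953.2 and 1210 in cpr5npr1 and 887.1 and 821.7 in cpr5scv1, against 1143 and 1493 in WT. Its log2 changes were -0.68 in cpr5 (SE 0.205, adjusted p = 0.0664, with the block 0.00771) and -0.61 in cpr5scv1 (SE 0.205, adjusted p = 0.0544, with the block 0.00638). The protease subunit gene clpP had 2242 and 2915 in cpr5 and 2443 and 2743 in cpr5scv1, against 3320 and 3496 in WT. None of these arrays overlapped with WT, and neither log2 change was called with or without the block (-0.41, SE 0.197, adjusted p = 0.243, and -0.40, SE 0.197, adjusted p = 0.177).

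Set against each other, the mutants that share cpr5 gave no called member. Between cpr5npr1 and cpr5, 58 of 69 genes were above 0, with a median log2 change of 0.12 (0.095 and 0.14 in the separate pairs), and 11 had both cpr5npr1 arrays above both cpr5 arrays, against 14.7% of all probe sets. None was called with or without the block, and 2 were higher at an unadjusted p below 0.05, against 1.81% of all probe sets. Those were ndhJ, with 1151 and 1282 in cpr5npr1, against 833.1 and 739.9 in cpr5 (log2 change 0.63, SE 0.139, adjusted p = 0.417, with the block 0.0865), and atpH, with 3118 and 3061 in cpr5npr1, against 2302 and 2292 in cpr5 (0.43, SE 0.142, adjusted p = 1.00, with the block 0.388). Few probe sets of any kind were called here, 0.00628% higher and 0.0377% lower (0.0314% and 0.0628% with the block).

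Between cpr5scv1 and cpr5 the median was -0.049 (-0.011 and -0.075), with 49 genes below 0. None was called with or without the block, and none had an unadjusted p below 0.05, where 0.477% of all probe sets were called lower and 0.327% higher (2.2% and 1.6% with the block). Both cpr5scv1 arrays lay below both cpr5 arrays for 9 genes and above them for 3, against 23.1% and 20.4% of all probe sets. The direction of this median was not stable, since it became 0.033 without the second cpr5scv1 array. Between cpr5npr1svi1 and cpr5npr1, 60 of 69 genes were above 0, with a median of 0.18 (0.15 and 0.20), and 16 had both arrays higher, against 17.9% of all probe sets. None was called with or without the block, while 0.829% of all probe sets were called higher and 0.32% lower (2.51% and 1.46% with the block). At an unadjusted p below 0.05, psbK, petL and psbH were higher, against 5.31% of all probe sets. The psbH values were 2398 and 2816 in cpr5npr1svi1, against 1689 and 2134 in cpr5npr1 (log2 change 0.45, SE 0.173, adjusted p = 0.349, with the block 0.111). Without the first cpr5npr1svi1 array the median was 0.31.

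In npr1 the shift rested mainly on 1 array. The median log2 change from WT was -0.25, with 62 genes below 0, but it was -0.12 in the first pair and -0.42 in the second. Without the second npr1 array it was -0.086, and without the first -0.42. Both npr1 arrays lay below both WT arrays for 19 genes, against 14.0% of all probe sets, and 42 were lower in both pairs, against 25.9%. No member was called with or without the block, where 0.0% of all probe sets were called lower (0.00628% with the block). At an unadjusted p below 0.05, 5 were lower, against 2.05% of all probe sets. The lowest values were on the second array: rbcL had 435.2 and 183.6 in npr1, against 360 and 736.1 in WT, and psbJ had 1231 and 497.5, against 1398 and 965.7. For psbN the values were 81.91 and 51.72 in npr1, against 106.5 and 106.5 in WT, which gave a log2 change of -0.71 (SE 0.299, adjusted p = 0.849).

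Between cpr5npr1 and npr1, which asks what cpr5 does where NPR1 is mutated, the median was -0.0043, with -0.20 in the first pair and 0.092 in the second. It was -0.18 without the second npr1 array and 0.12 without the first. No member was called (1 lower and 2 higher at an unadjusted p below 0.05, against 6.1% and 11.3% of all probe sets), where 0.798% of all probe sets were called lower and 4.32% higher. With the block rpl14 was called lower, where 3.06% of all probe sets were called lower and 7.3% higher. Averaged over both backgrounds, the effect of cpr5 had a median of -0.22, with 61 genes below 0 and 2 called, ndhJ and psbH, against 5.13% of all probe sets. With the block 16 were called, against 11.5% of all probe sets. For ndhJ the averaged log2 change was -0.39 (SE 0.0982, adjusted p = 0.0221), and it was lost in 5 of the 12 omissions of an array, while psbH was lost in 8.

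The interaction, which measures how far the cpr5 effect in the npr1 background differs from that in the NPR1 background, had a median of 0.44 (0.20 and 0.57), with 64 genes above 0. Without the second npr1 array this median was 0.21. No member was called with or without the block, where 0.0% of all probe sets were called higher and 0.0251% lower. At an unadjusted p below 0.05, 4 were higher, against 1.32% of all probe sets. The smallest p was that of ndhJ, at 1.01 (SE 0.196, unadjusted p = 0.000353, adjusted p = 0.562, with the block 0.133).

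The arrays numbered 1 and 2 differed from each other in a way that repeated over genotypes, for a larger share of the chloroplast genes than of all probe sets. This pattern, and the genes named for it, were picked after the values were seen. With the replicate number as a term in the model, 33 of the 69 genes were called different between the numbers (23 lower and 10 higher in the arrays numbered 2), which is 47.8% of the members. Over all probe sets 9.08% were called lower and 6.88% higher. The ratio was below 1 in all 6 genotypes for 23 members and above 1 for 10, against 12.5% and 9.17% of all probe sets. A difference beyond 1 on the log2 scale was found for 10 members, or 14.5%, against 0.854% of all probe sets.

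The differences ran within operons as well as between them. In the operon of accD, psaI, ycf4, cemA and petA, the last 3 were lower in the arrays numbered 2 by 1.53 (ycf4), 1.36 (cemA) and 1.62 (petA) on the log2 scale when averaged over genotypes, whereas accD and psaI differed by 0.25 and 0.065. The gene petA encodes cytochrome f, and its signal was 735.7 on array 2 and 2502 on array 1 of cpr5, and 1137 on array 2 and 2746 on array 1 of WT. In the large ribosomal operon, rpl36, rpl14 and rpl16 had log2 differences of -2.33, -1.23 and -1.07, while rps3 and rps19 stood at -0.027 and 0.016. In the ndhH-ndhD operon, psaC and ndhD were higher in the arrays numbered 2 by 1.91 and 0.87, and ndhG, ndhA and ndhH were lower, at -0.33, -0.39 and -0.36. For ycf4, cemA, petA, rpl36, rpl14, rpl16, psaC and ndhD the difference between array numbers exceeded that between any mutant and WT. Both numbers occur once in each genotype, and the block takes the number into account. The labels do not state what distinguished the 2 sets of arrays, and this was not tested.

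**Figure D4:**
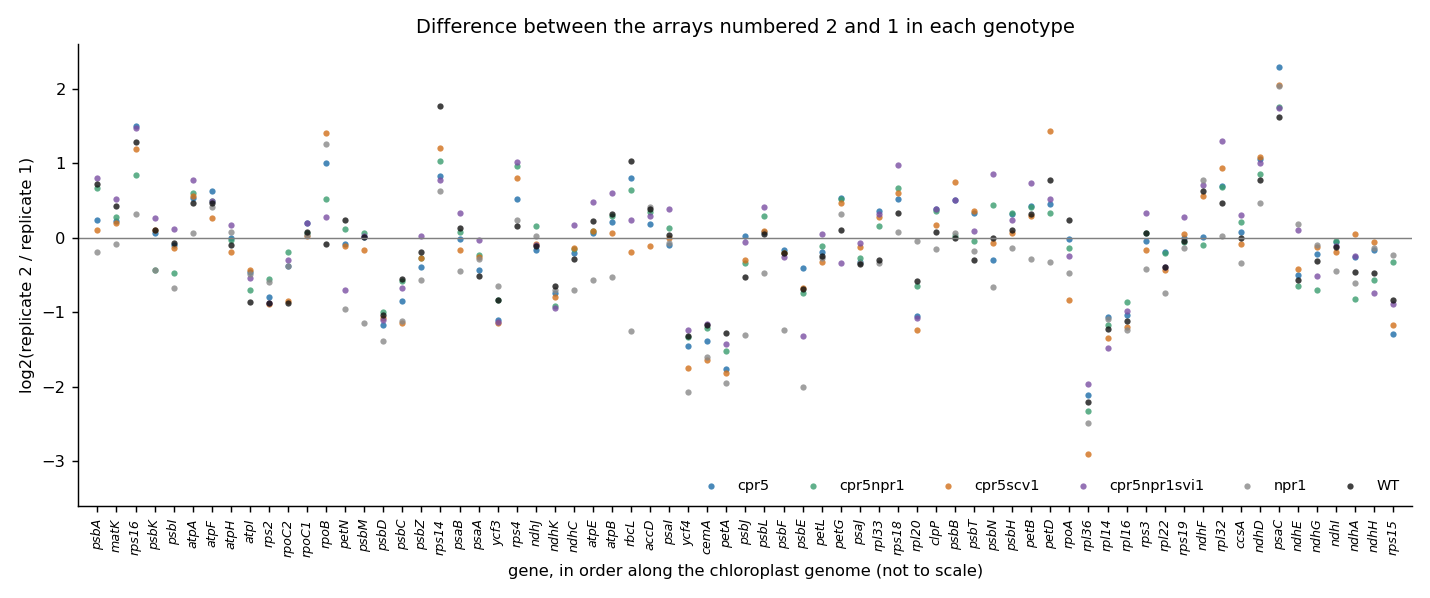
Log2 ratio of array 2 to array 1 (y axis) in each of the 6 genotypes (colours) for the 69 chloroplast genes, in their order along the chloroplast genome (x axis, not to scale). All 6 genotypes lie on the same side of 0 for 33 genes, with averages of -2.33 for rpl36 and 1.91 for psaC, while npr1 stands lower than the others at psbM, rbcL, psbF and psbE.

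The nuclear genes that serve the same complexes were looked up in 5 lists of 95 genes, of which 12 had a named probe set. The lists cover sigma factors and phage-type polymerases (1 of 8 named), PEP-associated proteins (0 of 12), NDH subunits and assembly factors (3 of 20), RNA processing factors (3 of 21) and nuclear subunits of the photosynthetic complexes (5 of 34). Of the 12, 11 were below 0 in cpr5, 11 in cpr5npr1, 12 in cpr5scv1 and 10 in cpr5npr1svi1, with median log2 changes of -0.50, -0.41, -0.51 and -0.31. The test called 1, 1, 3 and 1 of them lower, where 2.15%, 2.05%, 9.55% and 4.08% of all probe sets were called lower. With the block it called 4, 3, 7 and 3, against 6.92%, 6.2%, 16.4% and 9.19%.

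The nuclear NDH subunit gene NDHL was called in all 4. It had 375.6 and 367.4 in cpr5, 322.6 and 454.2 in cpr5npr1, 272.2 and 305.9 in cpr5scv1 and 335.6 and 376.9 in cpr5npr1svi1, against 606.7 and 608.7 in WT. It fell by 0.71 in cpr5 (SE 0.175, adjusted p = 0.0313), by 0.67 in cpr5npr1 (adjusted p = 0.0420), by 1.07 in cpr5scv1 (adjusted p = 0.00173) and by 0.77 in cpr5npr1svi1 (adjusted p = 0.0171). A second subunit, NDHN, had 325.5 and 226 in cpr5scv1, against 735.7 and 503.3 in WT, and fell by 1.17 (SE 0.323, adjusted p = 0.0254). The third gene called in cpr5scv1 was CRR21, an editing factor for an NDH transcript, which fell by 1.02 (SE 0.238, adjusted p = 0.0112), with 28.49 and 42.08 in cpr5scv1, against 77.31 and 64.16 in WT. In cpr5npr1svi1, where ndhJ had a log2 change of -0.19, NDHL and NDHN stood at -0.77 and -1.09 (NDHN adjusted p = 0.0528, with the block 0.00109).

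The green-tissue marker PRK was lower along with these genes. It had 2099 and 2455 in cpr5, 1918 and 2364 in cpr5npr1, 1936 and 2132 in cpr5scv1 and 2190 and 2525 in cpr5npr1svi1, against 3124 and 3627 in WT, and it was called lower in cpr5npr1 (log2 change -0.66, adjusted p = 0.0378) and cpr5scv1 (-0.73, adjusted p = 0.0112). With the block it was also called lower in cpr5 (-0.57, adjusted p = 0.0139, without the block 0.0652) and cpr5npr1svi1 (-0.52, adjusted p = 0.0174, without the block 0.0759). The log2 changes of RCA were -0.34 in cpr5, -0.35 in cpr5scv1 and 0.13 in cpr5npr1svi1 (adjusted p of 0.459, 0.335 and 0.806). The part of green-tissue content in the results on chloroplast genes was not tested.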

How the data were processed

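The submitters' processing notes name MAS5, and the deposited signal is linear. Its version, scaling settings and the priming of the label were not given in the sources used here. Chloroplast mRNAs mostly lack stable poly(A) tails. Probe sets were named through the platform annotation and the gene table of TAIR10.1, and of 22746 probe sets without the 64 controls, 13513 had 1 gene, 503 several and 8730 none listed. The log2 signal was used without a pseudocount. The dimmest 30% were left out, and the remaining 15923 were fitted with limma 3.58.1 in R 4.3.3 (eBayes with intensity trend) with a mean for each of the 6 genotypes (12 arrays, 11 contrasts, 6 residual degrees of freedom). Calls used a Benjamini-Hochberg adjusted p below 0.05 over all probe sets in a contrast. Unless another fit is named, each adjusted p comes from this one. The procedure was run on simulated data with independent noise for each array. That simulation held no difference between array numbers, so it cannot show how the calls behave under the one seen here.

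Replicate numbers come from the sample titles. Between the 15 pairs of groups, deviations of same-numbered arrays correlated at 0.175 to 0.363, which was read as pairing, and the value with the number as a block is given where it changes a call.

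The members and gene lists were chosen with earlier results of these data known. The naming rule took the genes called in any contrast, all members of classes of up to 5 genes, the ndhC-ndhK-ndhJ operon and, per class and comparison, the largest rise and fall among genes whose arrays did not overlap, 32 in all. Others named are block calls, genes with an unadjusted p below 0.05 where 5 or fewer had one, and the genes of the replicate pattern, picked after their values were seen. Alternatives were quantile normalization, scaling to one median, no filter or a filter of 50%, a pseudocount of 32, no trend, the block, only the groups compared, and each array left out.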

Additional observations from a re-analysis of the deposited data

How the results depend on the processing

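The medians below 0 in cpr5, cpr5npr1 and cpr5scv1 against WT kept their sign under every alternative run, and their size depended on the scaling. With quantile normalization they were -0.18, -0.092 and -0.22, with scaling to one median -0.60, -0.46 and -0.62, and with a pseudocount of 32 the cpr5 and cpr5scv1 medians were -0.37 and -0.41. Scaling to one median also moved the median of all probe sets, to -0.17, -0.16 and -0.20. With quantile normalization the median of all probe sets was -0.067, -0.060 and -0.11, so the cpr5npr1 members barely differed from it. The cpr5npr1svi1 median turned to 0.030 with quantile normalization and was -0.25 with one median, where all probe sets stood at -0.15. The median between cpr5npr1svi1 and cpr5npr1 was 0.088 with quantile normalization, and that of the averaged cpr5 effect -0.054 and -0.39 with quantile normalization and one median.

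Counts of calls also moved. In cpr5 against WT, 1 gene was called with quantile normalization, no filter or no trend, 6 with one median, 17 with the replicate block and 0 with only the groups compared. In cpr5scv1 it was 19 with one median, 33 with the block and 2 with only the groups compared, and in cpr5npr1 1 with one median and 5 with the block. For cpr5npr1 against npr1 it was 1 with the block. Scaling to one median called 5.74%, 5.41% and 16.7% of all probe sets lower in cpr5, cpr5npr1 and cpr5scv1 and 4.85%, 4.67% and 9.89% higher, where the signal as deposited gave 2.15%, 2.05% and 9.55% lower and 6.56%, 6.09% and 12.8% higher. The averaged cpr5 effect had 0 with quantile normalization or only the groups compared, 1 with no filter or no trend, 12 with one median, where 13.6% of all probe sets were called lower, and 16 with the block.

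Leaving out an array gave 1 to 2 calls in cpr5, 3 to 8 in cpr5scv1 (3 without its first array), 0 to 2 in cpr5npr1 against npr1 and 0 to 2 for the averaged effect. The medians ran from -0.41 to -0.35 in cpr5, -0.32 to -0.23 in cpr5npr1, -0.47 to -0.34 in cpr5scv1, -0.12 to 0.036 in cpr5npr1svi1 and -0.42 to -0.086 in npr1. They ran from -0.18 to 0.12 in cpr5npr1 against npr1, 0.063 to 0.12 in cpr5npr1 against cpr5, -0.089 to 0.033 in cpr5scv1 against cpr5, 0.17 to 0.31 in cpr5npr1svi1 against cpr5npr1, -0.28 to -0.12 for the averaged effect and 0.21 to 0.58 for the interaction. Only some gene results were followed through these omissions, and the list of sign changes is not complete. Among those followed, psaC changed sign in cpr5 (-1.68 to 0.61) and in cpr5scv1 (-1.59 to 0.45). So did rps2 in cpr5npr1 (-0.87 to 0.0006), and rpl14 in cpr5npr1 against WT (-1.14 to 0.081) and against npr1 (-1.13 to 0.041). Other genes would also change sign with 1 WT array left out. In cpr5scv1 both arrays of psaA (3217 and 2697) and psbJ (1204 and 975.2) lay above the second WT array (2677 and 965.7). In cpr5npr1 both arrays of rbcL (389.4 and 609.3) lay above the first WT array (360). The cause was not tested.

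With 2 arrays a genotype the spread rests on all 6 genotypes together. Every gene had 1 probe set, so averaging probe sets of a gene gave no other value.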

Other observations

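The 8 chloroplast probe sets that list several gene copies were not members but gave similar values. Their log2 changes from WT ran below 0 in cpr5 and cpr5scv1 for all 8. The ycf1 set, for a protein of the import machinery of the inner envelope, had 861.6 and 690.4 in cpr5 and 726.1 and 678.1 in cpr5scv1, against 1103 and 965.4 in WT. It was called lower in cpr5scv1 (log2 change -0.56, adjusted p = 0.0369) and, with the block, in cpr5 (-0.42, adjusted p = 0.0346) and cpr5npr1svi1 (-0.46, adjusted p = 0.0199). It had 763 and 738.3 in cpr5npr1svi1.

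Genes of the mitochondrial genome, the other organelle genome, were measured by 11 named genes, of which 8 were tested. Their median log2 change was -0.017 in cpr5, -0.0080 in cpr5npr1 and -0.016 in cpr5scv1, with 4 of 8 below 0 in each, and none was called with or without the block. In cpr5npr1svi1 all 8 were below 0, with a median of -0.48 (-0.28 and -0.77 in the separate pairs). There 0 were called, or 1 lower with the block, where 4.08% and 9.19% of all probe sets were called lower. Against cpr5npr1 the cpr5npr1svi1 median was -0.44, again with 8 of 8 below 0, while the chloroplast genes in that comparison had a median of 0.18.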
